A study of Drosophila melanogaster with 18 samples.

Results

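The ATAC complex of Drosophila is a histone acetyltransferase complex, and the mRNAs of 9 of its subunits were followed here in ovaries with germline clones mutant for subunits of a related complex, SAGA. The 9 genes were taken by name (Ada2a, Atac1, Atac2, Atac3, D12, wds, Hcf, NC2beta and Chrac-14), and each was found in the deposited table, which holds 15682 genes. The ovaries carried clones labelled ada2b, Ataxin-7 or non-stop, and each mutant had its own FRT control, which the labels call wild type. There were 3 libraries in each of the 6 groups, 18 in all, described as biological triplicates. All larvae, controls included, were heat shocked for 2 h at 37 °C on consecutive days to induce clones, flies were grown at 25 °C, and females had yeast for 2 to 3 days before whole ovaries were dissected. The labels name no allele, no chromosome arm of the FRT site and no age, and the ovary keeps somatic follicle cells that a germline clone does not cover.

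Gcn5, the acetyltransferase of SAGA, is also the acetyltransferase of ATAC. The complexes differ in the adaptor that holds it: SAGA uses Ada2b, whereas ATAC uses the paralog Ada2a, and both adaptors work with Ada3 and Sgf29. ATAC adds a further acetyltransferase, Atac2, the YEATS domain protein D12, and the subunits Atac1 and Atac3. It also contains proteins that serve elsewhere, namely the WD40 protein wds of the histone methyltransferase complexes, the host cell factor homolog Hcf, and the small histone fold proteins NC2beta and Chrac-14. None of the 9 genes was itself mutated. Their mRNA levels in ada2b ovaries thus compare ATAC genes between ovaries labelled mutant for a SAGA and ADA adaptor and FRT ovaries. Whether the adaptor protein was absent from the germline was not measured.

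Levels are given as RPKM, reads normalized to gene length and to the depth of the library, as deposited. Changes are given on the log2(RPKM + 1) scale, which understates those of low genes, and a gene was called changed at a limma adjusted p under 0.05 over all genes tested. The mutated genes themselves were examined first. Ada2b averaged 7.57 RPKM in ada2b ovaries and 45.4 RPKM in their FRT control, and non-stop averaged 1.64 RPKM in non-stop ovaries and 21.1 RPKM in their FRT control. Atxn7, however, averaged 12.5 RPKM in the libraries labelled Ataxin-7 and 7.72 RPKM in their FRT control, so its mRNA was higher there, not lower. As no allele is named, the mRNA level does not show whether the gene was mutant in these libraries. Reads on genes ranged from 22609427 to 42019136 per library, and ada2b replicate 1 was the shallowest. Values were normalized within each experiment, so levels are compared with the FRT control of the same experiment only.

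For a pair of members the value is not that of the member alone. The row of Ada2a was identical in every library to that of Polr2D, which encodes the Rpb4 subunit of RNA polymerase II. In the BDGP6.54 annotation Ada2a lies on chromosome arm 3R from 18252843 to 18255487 on the minus strand, and Polr2D overlaps all 2645 bp of it on the same strand. The row of Chrac-14 was identical to that of mus201, the gene of the XPG endonuclease of nucleotide excision repair. The length behind it was 4942 bp, whereas Chrac-14 (2L, 8437405 to 8437996, plus strand) spans 592 bp and mus201 starts 172 bp beyond it on the same strand. These rows are therefore called Ada2a/Polr2D and Chrac-14/mus201, and how their reads divide between the genes cannot be told apart. Of 8826 genes with at least 50 reads, 174 had a row identical to that of another gene.

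**Figure D1:**
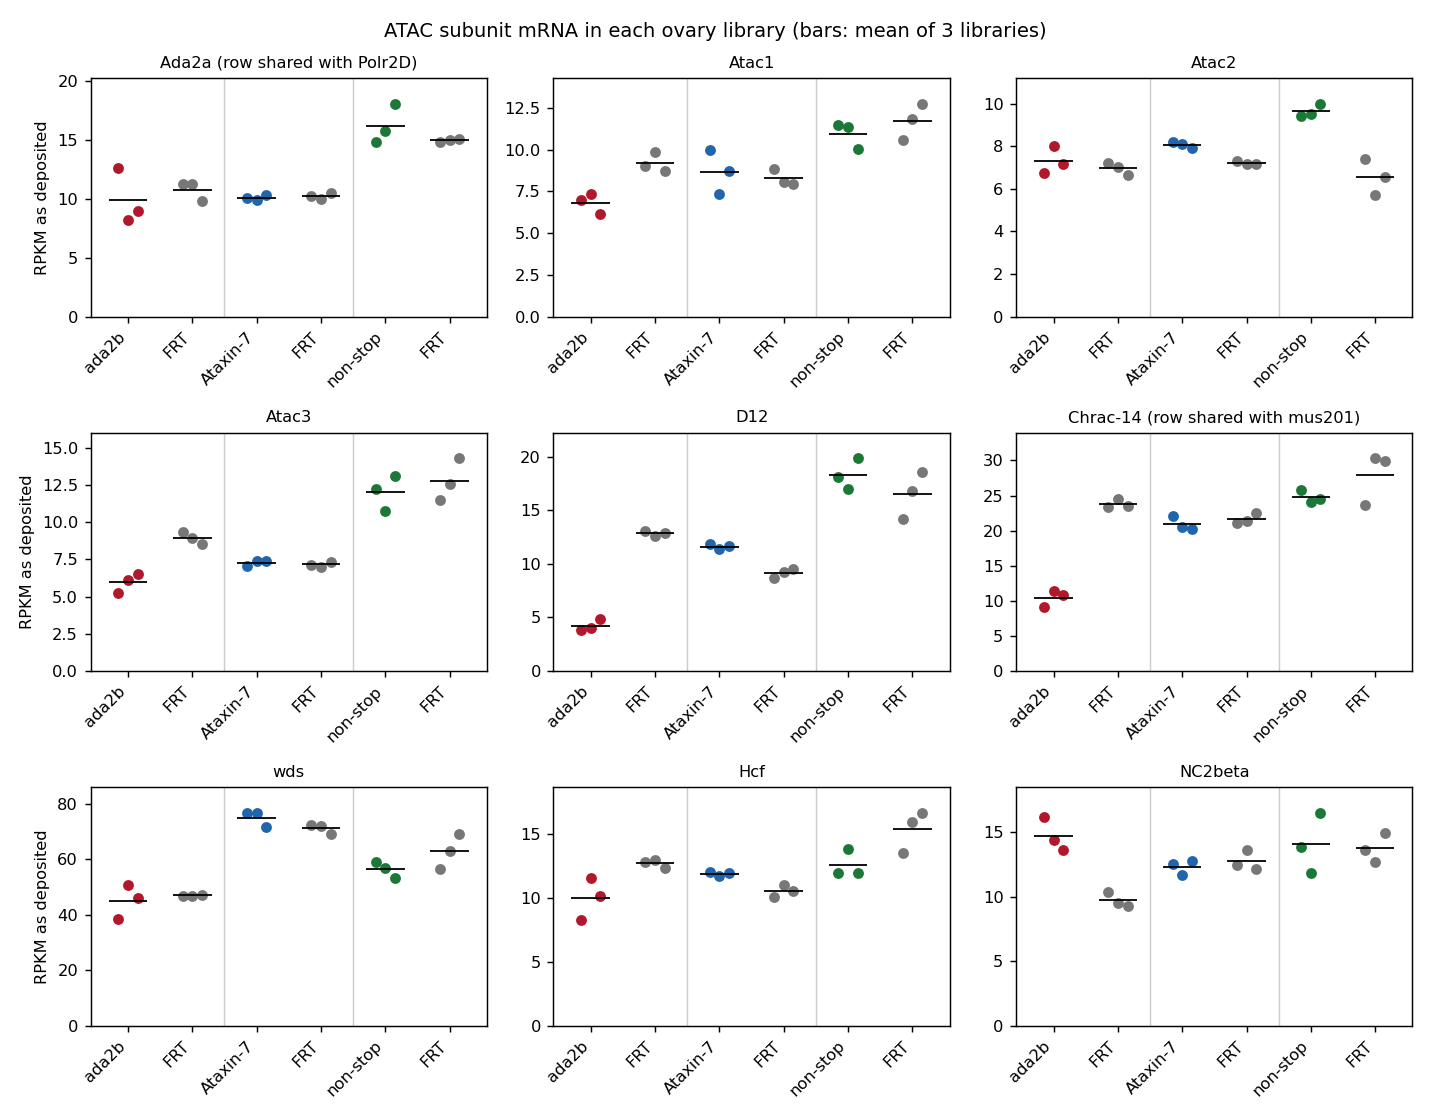
RPKM of each ATAC subunit in every ovary library (points), with the mean of 3 libraries (bars), mutant groups in colour and their FRT controls in grey. D12 lay between 3.83 and 4.86 RPKM in ada2b ovaries, against 12.57 to 13.035 RPKM in their FRT control, and NC2beta was higher in all 3 ada2b libraries than in all 3 FRT libraries.

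D12 showed the largest log2 change of the 9 genes in ada2b ovaries. D12 (FBgn0027490, 2L, 8434058 to 8437365, minus strand) is the fly homolog of YEATS2, whose YEATS domain reads acylated histones. It had 3.83, 3.99 and 4.86 RPKM in ada2b ovaries, against 13.035, 12.57 and 12.92 RPKM in FRT ovaries. These values rest on 257 to 662 reads in ada2b libraries and on 1454 to 1818 reads in FRT libraries. The groups did not overlap, and the FRT mean was 3.04 times the ada2b mean. The log2 fold change was -1.41 with a 95% interval of -1.62 to -1.20 (adjusted p = 5.27e-05), below all but 3.6% of the genes tested. D12 went the other way in the libraries labelled Ataxin-7. It had 11.8, 11.4 and 11.6 RPKM there, against 8.67, 9.28 and 9.49 RPKM in their FRT control, again without overlap, and rose by 0.32 on the log2 scale (adjusted p = 0.00153). In non-stop ovaries it had 18.1, 17.003 and 19.8 RPKM, against 14.2, 16.8 and 18.6 RPKM in FRT ovaries. The non-stop and FRT libraries overlapped, and the change of 0.15 did not pass the test (interval -0.10 to 0.39). Over the libraries, D12 thus held the lowest mean RPKM of the 9 members in ada2b ovaries and the rank of 3 in their FRT control.

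Chrac-14/mus201 was lower in ada2b ovaries as well. Chrac-14, the fly homolog of POLE3, is a histone fold protein that also belongs to the CHRAC remodeling complex. Its row had 9.14, 11.4 and 10.8 RPKM in ada2b ovaries, against 23.4, 24.5 and 23.5 RPKM in FRT ovaries. The groups did not overlap, and the log2 fold change was -1.12 (interval -1.33 to -0.91, adjusted p = 9.87e-05), below all but 7.2% of the genes. It had 22.0, 20.5 and 20.2 RPKM in the libraries labelled Ataxin-7, against 21.1, 21.4 and 22.6 RPKM in FRT, and in non-stop ovaries 25.7, 24.1 and 24.5 RPKM, against 23.6, 30.3 and 29.9 RPKM in FRT. In both experiments the groups overlapped, and neither change passed the test with RPKM as deposited (-0.05 and -0.16). With germline scaling the row was called lower in non-stop ovaries (-0.52, adjusted p = 0.00805), where the median of all genes was then -0.355. Without FRT replicate 1 of the non-stop experiment, the lowest of its 3 controls, the non-stop change was -0.27 and was called (adjusted p = 0.0131).

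D12 and Chrac-14 are neighbours in the genome. They are transcribed away from each other, and 39 bp lie between them, so that these ATAC genes face each other across a short shared interval. The genes beyond them were examined after these values had been seen. On the far side of Chrac-14 lies mus201, whose value is the shared one. On the far side of D12, 459 bp away on the same strand, lies grk, which encodes the oocyte's ligand for the EGF receptor. It averaged 9.65 RPKM ± 1.56 in ada2b ovaries and 5.13 RPKM ± 0.317 in FRT ovaries (SD, n = 3 each), and rose by 0.79 on the log2 scale (adjusted p = 0.00111). The gene on that side thus moved in the opposite direction to D12. The kit marks strand, but use of strand in counting is not given in the sources used here.

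**Figure D2:**
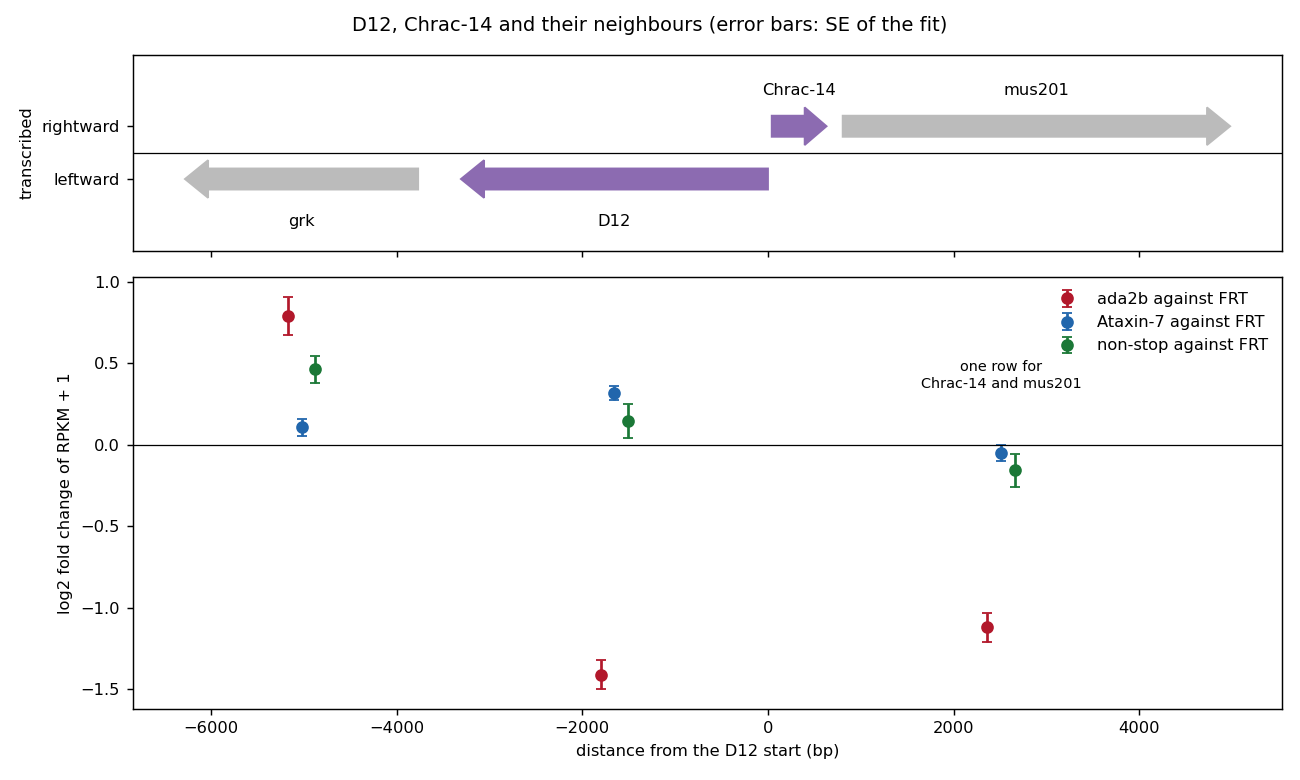
Genes around D12 (upper panel, arrows in the direction of transcription, x axis in bp from the D12 start) and their log2 fold changes in each mutant against its FRT control (lower panel, error bars are the SE of the fit, points placed over each gene and set slightly apart). In ada2b ovaries D12 was at -1.41 and the row shared by Chrac-14 and mus201 at -1.12, whereas grk was at 0.79.

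NC2beta moved in the opposite direction. NC2beta (FBgn0028926, 2L, 15007813 to 15008538, plus strand, 1 exon) is the fly homolog of Dr1, which with NC2alpha binds the TATA binding protein on promoters. It had 16.1, 14.4 and 13.6 RPKM in ada2b ovaries, against 10.4, 9.49 and 9.30 RPKM in FRT ovaries. The ada2b mean was 1.52 times the FRT mean without overlap between the groups, and the log2 fold change was 0.55 (interval 0.35 to 0.75, adjusted p = 0.00122). With RPKM as deposited it was the only member called higher in ada2b ovaries. NC2beta had 12.5, 11.7 and 12.7 RPKM in the libraries labelled Ataxin-7, against 12.5, 13.6 and 12.1 RPKM in FRT, and in non-stop ovaries 13.9, 11.8 and 16.5 RPKM, against 13.6, 12.7 and 14.9 RPKM in FRT. These groups overlapped and neither change passed the test (-0.04 and 0.02). THG overlaps 50 bp of NC2beta on the opposite strand, and no row matched its identifier in BDGP6.54. Reads from THG in that stretch could not be separated.

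The partner of NC2beta did not move with it. NC2alpha averaged 16.4 RPKM ± 0.944 in ada2b ovaries and 25.6 RPKM ± 1.19 in FRT ovaries (SD, n = 3 each), and fell by 0.62 on the log2 scale (adjusted p = 0.000346), although it stood at 0.15 and was not called when libraries were scaled to germline markers. The ratio of NC2beta to NC2alpha within a library, which library scaling leaves as it is, was 0.926, 0.911 and 0.862 in ada2b ovaries, against 0.384, 0.383 and 0.371 in FRT ovaries. In the other experiments the ratio ranged from 0.340 to 0.371 in libraries labelled Ataxin-7, 0.347 to 0.418 in their FRT control, 0.344 to 0.356 in non-stop ovaries and 0.364 to 0.413 in theirs. The ratio of D12 to NC2beta, taken in the same way, was 0.237, 0.277 and 0.356 in ada2b ovaries, against 1.26, 1.32 and 1.39 in FRT ovaries.

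The 3 subunits named for the complex behaved differently from each other. Atac3 (FBgn0052343, 3L, 324985 to 327992, minus strand) had 5.25, 6.12 and 6.50 RPKM in ada2b ovaries, against 9.35, 8.95 and 8.56 RPKM in FRT ovaries. The groups did not overlap, and it fell by 0.52 on the log2 scale (interval -0.73 to -0.31, adjusted p = 0.00206). Atac1 (FBgn0031876, 2L, 6959099 to 6960328, minus strand), the homolog of ZZZ3, had 6.98, 7.35 and 6.14 RPKM in ada2b ovaries, against 9.04, 9.83 and 8.69 RPKM in FRT ovaries. It fell by 0.38 (interval -0.59 to -0.18, adjusted p = 0.00715). Neither Atac1 nor Atac3 passed the test in the other mutants with RPKM as deposited, where their changes lay between -0.09 and 0.05. With germline scaling both were called lower in non-stop ovaries (-0.44 and -0.43, adjusted p = 0.00499 and 0.0259). The end of Atac1 overlaps CG3430 by 6 bp on the opposite strand, and CG3430 averaged 16.6 RPKM ± 2.02 in ada2b ovaries and 45.2 RPKM ± 1.74 in FRT ovaries (SD, n = 3 each, log2 fold change -1.40).

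Atac2, the catalytic subunit found in ATAC but not in SAGA, was not among the genes that fell. Atac2 (FBgn0032691, 2L, 18609576 to 18612249, minus strand) had 6.72, 8.03 and 7.16 RPKM in ada2b ovaries, against 7.23, 7.02 and 6.66 RPKM in FRT ovaries. The groups overlapped, and the change of 0.06 had an interval of -0.14 to 0.25. In non-stop ovaries it had 9.41, 9.52 and 9.99 RPKM, against 7.41, 5.71 and 6.58 RPKM in FRT ovaries. There it rose by 0.50 on the log2 scale (interval 0.28 to 0.71, adjusted p = 0.00341), to 1.47 times the FRT mean, the largest log2 change of a member in that experiment. When libraries were scaled to germline markers it was 0.16 and was not called (adjusted p = 0.244). Atac2 had 8.18, 8.11 and 7.93 RPKM in the libraries labelled Ataxin-7, against 7.30, 7.16 and 7.18 RPKM in FRT. These groups did not overlap either, and the rise of 0.14 was called (adjusted p = 0.0177) but not without Ataxin-7 replicate 1 or 2 or FRT replicate 2 (adjusted p = 0.0567, 0.0592 and 0.056). Nor was it called with quantile normalization, a replicate block or 1 fit of all 18 libraries (adjusted p = 0.0635, 0.0536 and 0.1685).

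The adaptor row and the catalytic core gave a mixed picture. Ada2a/Polr2D (FBgn0263738) had 12.6, 8.17 and 8.97 RPKM in ada2b ovaries, against 11.3, 11.2 and 9.77 RPKM in FRT ovaries. The ada2b libraries spanned the FRT libraries because replicate 1 was high, and the change of -0.13 did not pass the test (interval -0.49 to 0.24). Without ada2b replicate 1 it was -0.29 and was called (adjusted p = 0.0173). In the libraries labelled Ataxin-7 and in non-stop ovaries the changes of this row were -0.01 and 0.10, and neither passed the test. The ratio of the Ada2a/Polr2D row to Ada2b within a library was 2.04, 1.05 and 1.03 in ada2b ovaries, against 0.249, 0.252 and 0.210 in FRT ovaries. Ada2b itself fell by 2.45 on the log2 scale between these groups. Of the 3 core genes that ATAC shares with SAGA, Gcn5 and Sgf29 fell in ada2b ovaries and Ada3 did not pass the test. Of all genes tested there, 42.3% were called lower. Gcn5 averaged 12.7 RPKM ± 0.218 in ada2b ovaries and 18.4 RPKM ± 0.179 in FRT ovaries, and Sgf29, whose protein binds methylated histone H3, averaged 10.3 RPKM ± 2.19 in ada2b ovaries and 15.4 RPKM ± 0.525 in FRT ovaries (SD, n = 3 each). Their log2 fold changes were -0.51 and -0.55 (0.25 and 0.20, neither called, when libraries were scaled to germline markers, where Ada3 was called higher at 0.70, and Sgf29 was not called with quantile or common median scaling either), and none of the 3 core genes was called in the other mutants with RPKM as deposited. In the libraries labelled Ataxin-7, Gcn5 was called lower with quantile normalization (-0.14) and Sgf29 higher with germline scaling (0.24), and in non-stop ovaries Gcn5 and Ada3 were called lower with germline scaling (-0.47 and -0.34). Mocs2B, the molybdopterin synthase subunit reported with fly ATAC, rose by 0.27 in ada2b ovaries and fell by 0.23 in the libraries labelled Ataxin-7 and by 0.26 in non-stop ovaries. With germline scaling these values were 1.06, -0.07 (not called) and -0.63.

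wds and Hcf, which serve in complexes other than ATAC, showed small changes. wds (FBgn0040066, X, 2585980 to 2588217, plus strand), the homolog of WDR5, had the highest RPKM of the 9 members in each group. It had 38.4, 50.6 and 46.0 RPKM in ada2b ovaries, against 46.8, 46.9 and 47.1 RPKM in FRT ovaries. The ada2b libraries lay on either side of the control, and the change was -0.07 (interval -0.31 to 0.18). In libraries labelled Ataxin-7 wds averaged 75.0 RPKM ± 2.83, against 71.1 RPKM ± 1.82 in FRT, and in non-stop ovaries 56.3 RPKM ± 3.02, against 62.8 RPKM ± 6.26 in FRT (SD, n = 3 each). Neither change passed the test.

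Hcf (FBgn0039904, chromosome 4, 359938 to 375554, plus strand) was called in each mutant but not in one direction. It had 8.26, 11.5 and 10.2 RPKM in ada2b ovaries, against 12.79, 12.97 and 12.32 RPKM in FRT ovaries, and fell by 0.33 (adjusted p = 0.0393). In non-stop ovaries it had 11.9, 13.8 and 11.9 RPKM, against 13.5, 15.95 and 16.65 RPKM in FRT ovaries, and fell by 0.27 (adjusted p = 0.0473), although the groups overlapped. Hcf had 12, 11.73 and 11.95 RPKM in the libraries labelled Ataxin-7, against 10.1, 11.02 and 10.5 RPKM in FRT, and rose by 0.16 (adjusted p = 0.0179). These calls lie close to the threshold. The ada2b call was lost without any 1 FRT library or without ada2b replicate 3 (adjusted p from 0.0718 to 0.109), and also with no filter (0.0704), with quantile normalization (-0.13, adjusted p = 0.377) and with a common median (-0.08, adjusted p = 0.539). With germline scaling Hcf was called higher in ada2b ovaries (0.41, adjusted p = 0.0455). The non-stop call was lost without non-stop replicate 1 or 3 or FRT replicate 2 or 3 (0.123 to 0.139), and the Ataxin-7 call without Ataxin-7 replicate 1 or FRT replicate 1 (0.0529 and 0.0576). The Ataxin-7 call was also lost with a replicate block and in 1 fit of all 18 libraries (adjusted p = 0.0502 and 0.2365). The non-stop call was also lost with no filter and without a trend in eBayes (adjusted p = 0.0983 and 0.0551).

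**Figure D3:**
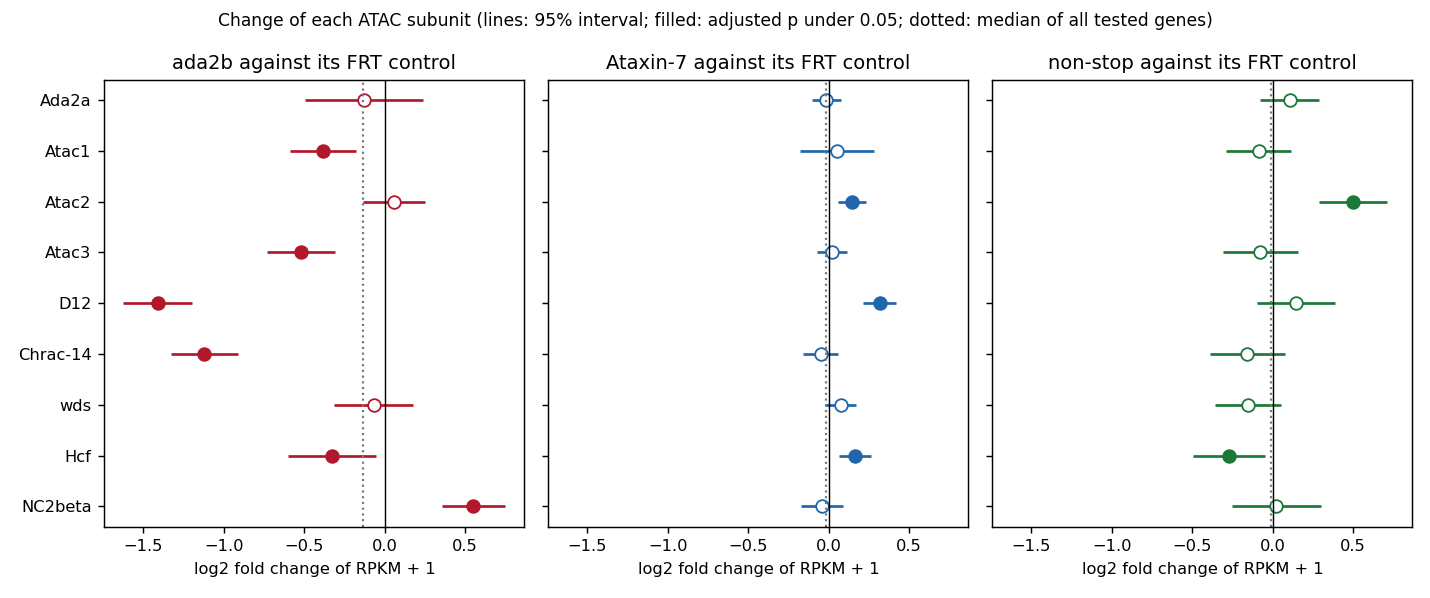
Log2 fold change of RPKM + 1 for each ATAC subunit in the 3 mutants against their own FRT controls (points), with the 95% interval of the limma fit (lines). Filled points passed an adjusted p under 0.05, and the dotted line is the median of all genes tested, -0.13 in ada2b, where D12 (-1.41) and NC2beta (0.55) mark the ends of the range of members.

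The number of members called was set beside the share of all genes called. In ada2b ovaries 6 of 9 were called, 5 lower and 1 higher, whereas 67.9% of the 7674 genes tested were called there, 42.3% lower and 25.6% higher. The members had a median of -0.33, and all tested genes a median of -0.13. In the libraries labelled Ataxin-7, 3 of 9 were called, each higher, against a background of 44.3% (20% higher and 24.3% lower), with a median of 0.05 for members and -0.01 for all genes. In non-stop ovaries 2 of 9 were called, 1 in each direction, against a background of 50.8% (25.7% higher and 25% lower), with medians of -0.08 for members and -0.01 for all genes. All 9 members passed the filter of a mean of at least 1 RPKM in every fit. Leaving out both shared rows, 5 of 7 were called in ada2b ovaries, 3 of 7 in libraries labelled Ataxin-7 and 2 of 7 in non-stop ovaries. Exact two-sided permutation tests of single members gave p = 0.1 wherever the groups did not overlap, the smallest value that 3 libraries against 3 can give.

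The libraries of ada2b ovaries also differed from their control in what they contained. The summed level of 9 chorion genes, which late follicle cells express, was 963 to 2830 RPKM in ada2b ovaries, against 20100 to 22600 RPKM in FRT ovaries, and all 9 were called lower. The 7 vitelline membrane genes, which follicle cells express at earlier stages, summed to 11200 to 15800 RPKM, against 13100 to 18000 RPKM, with overlap and 2 of 7 lower. The 6 measured germline markers of a list of 8 summed to 212 to 300 RPKM, against 466 to 515 RPKM, with 4 lower and 1, grk, higher. The 6 measured muscle markers summed to 190 to 313 RPKM, against 18.4 to 35.4 RPKM, all higher. Hemocyte markers summed to 2.27 to 3.71 RPKM, against 0.112 to 0.178 RPKM, fat body markers to 10.7 to 37.0 RPKM, against 3.25 to 4.94 RPKM, and neuron markers to under 1 RPKM in each group. In these bulk libraries fewer cells of a type and less RNA per cell cannot be told apart, and the part of cell composition in the changes of the ATAC genes was not tested. In libraries labelled Ataxin-7 muscle markers summed to 62.8 to 86.7 RPKM, against 31.3 to 45 RPKM, and in non-stop ovaries to 50.4 to 95.7 RPKM, against 49.2 to 70.9 RPKM. Chorion genes summed to 15800 to 18100 RPKM in libraries labelled Ataxin-7, against 22000 to 24000 RPKM in FRT, with 4 of 9 lower, and to 9070 to 11500 RPKM in non-stop ovaries, against 3660 to 8120 RPKM in FRT, with 2 of 9 higher. Germline markers summed to 566 to 583 RPKM, against 559 to 610 RPKM, in the Ataxin-7 experiment, with 1 of 6 higher and 1 lower, and to 400 to 463 RPKM, against 425 to 447 RPKM, in the non-stop experiment, with 3 of 6 higher and 1 lower.

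Scaling bore on the smaller ada2b changes. When libraries were scaled to a common median of the tested genes, the median change in ada2b ovaries moved to 0.11, and 58.8% of called genes were higher, against 37.7% with RPKM as deposited. Scaled to the median of the germline markers, the median change was 0.59 and 90.5% of called genes were higher. D12 was called lower under each scaling tried (-1.37 to -0.70 with the 3 other scalings), and NC2beta was called higher (0.75 to 1.29). Chrac-14/mus201 stayed lower, but with germline scaling it was at -0.36 and was not called (adjusted p = 0.0903). Atac3 was called lower with the common median (-0.28), and Atac1 and Hcf were not (-0.14 and -0.08, adjusted p = 0.202 and 0.539), whereas Atac2 was called higher there (0.29, adjusted p = 0.0141). With germline scaling Atac1 and Atac3 turned positive without a call (0.34 and 0.19), and Atac2, wds and Hcf were called higher (0.76, 0.72 and 0.41). The germline median rests on 6 genes, among them grk, which itself rose. With the same scaling the median change of all genes was 0.13 in the libraries labelled Ataxin-7 and -0.36 in non-stop ovaries.

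**Figure D4:**
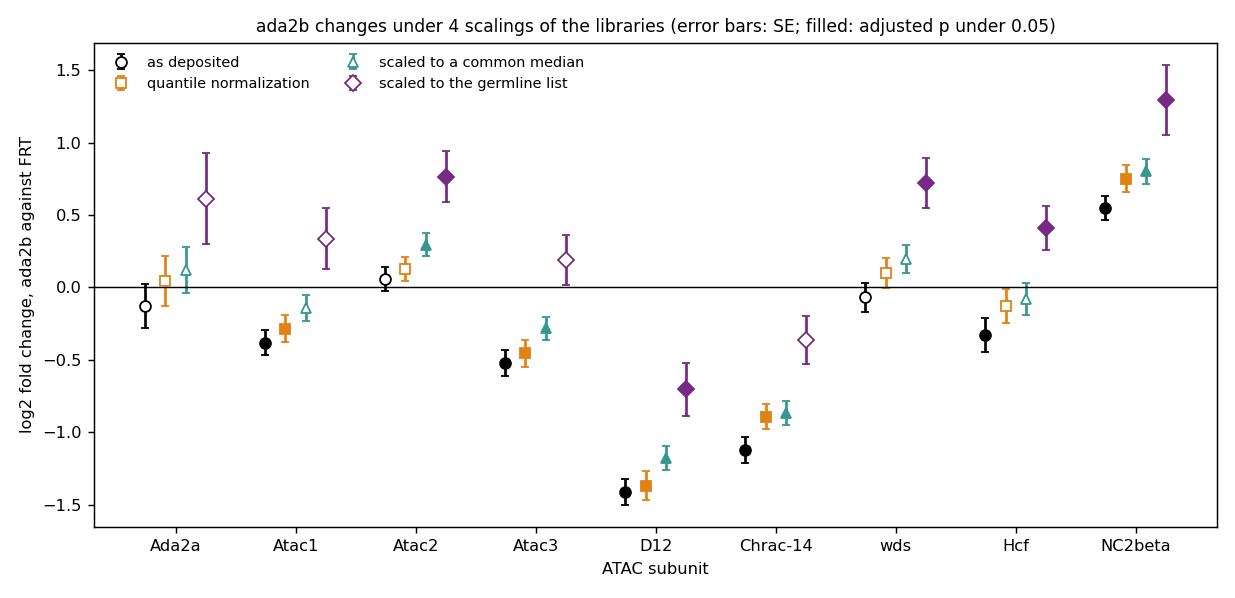
Log2 fold change of each ATAC subunit in ada2b ovaries against FRT under RPKM as deposited, quantile normalization, scaling to a common median and scaling to the germline markers (error bars are the SE, filled symbols passed an adjusted p under 0.05). D12 lies below 0 and NC2beta above 0, both filled, in each of the 4 settings, whereas Ada2a, Atac1, Atac3, wds and Hcf change sign between settings.

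The differences between mutants were tested directly as interactions over 12 libraries. The change of D12 was more negative in ada2b ovaries than in the libraries labelled Ataxin-7 by -1.73 (interval -1.94 to -1.51, adjusted p = 2.21e-07), and than in non-stop ovaries by -1.56 (interval -1.87 to -1.24, adjusted p = 6.03e-06). The change of NC2beta was more positive in ada2b ovaries by 0.60 and 0.53 in these comparisons (adjusted p = 0.000332 and 0.0095). Chrac-14/mus201 differed by -1.07 and -0.96, Atac3 by -0.54 and -0.44. Atac1 and Hcf differed between ada2b and the libraries labelled Ataxin-7 (-0.43 and -0.49), and Atac2 between ada2b and non-stop (-0.44). With germline scaling the difference between ada2b and non-stop was -0.50 for D12 and 0.16 for Chrac-14/mus201, neither called (adjusted p = 0.0786 and 0.506). The smaller differences depended on the scale as well. Atac1 and Hcf were not called with quantile normalization (adjusted p = 0.0774 and 0.0843) or a common median (-0.19 and -0.23, adjusted p = 0.261 and 0.101), and with germline scaling Atac1, Hcf and Atac3 against Ataxin-7 turned positive without a call (0.15, 0.11 and 0.03). Atac2 and Atac3 against non-stop were not called with quantile normalization (adjusted p = 0.186 and 0.0823) or a common median (-0.13 and -0.15, adjusted p = 0.356 and 0.291), and with germline scaling they were called in the opposite direction (0.61 and 0.62, adjusted p = 0.0186 and 0.0252). In all, 6 of 9 members were called between ada2b and Ataxin-7, with 68.5% of all genes called (26.3% higher and 42.2% lower), and 5 of 9 between ada2b and non-stop, with 70.6% called (27% higher and 43.6% lower). Between the libraries labelled Ataxin-7 and non-stop, 2 of 9 were called, with 37.5% of all genes (16.8% higher and 20.7% lower), namely Atac2 (-0.35) and Hcf (0.43). Atac2 was not called there with quantile normalization (-0.21, adjusted p = 0.0811) or germline scaling (0.12, adjusted p = 0.405). Without FRT replicate 1 of the non-stop experiment this last count was 5.

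The order of levels within a group was compared per kilobase, since RPKM divides by length. The length used was close to the gene span, introns included, which lowers Hcf in particular: its span is 15617 bp and its exons cover 8196 bp. In the ada2b experiment wds stood first, at 44.97 RPKM in ada2b ovaries and 46.9 RPKM in FRT ovaries. In ada2b ovaries NC2beta came next (14.7), apart from the rest, then Chrac-14/mus201, Hcf and Ada2a/Polr2D, whose ranges overlapped (10.4, 9.99 and 9.90), then Atac2, Atac1 and Atac3, each overlapping the next (7.31, 6.82 and 5.96), and D12 last and apart (4.23). In FRT ovaries the order was Chrac-14/mus201 (23.8), D12 and Hcf (12.8 and 12.7, overlapping), Ada2a/Polr2D, NC2beta, Atac1 and Atac3 (10.8, 9.72, 9.19 and 8.95, each overlapping the next), and Atac2 last (6.97). Per kilobase of exons Hcf stood at 18.3 in ada2b ovaries and 23.3 in FRT ovaries, above every member with its own row except wds. By RPKM as deposited Atac1, Atac2 and Atac3 held ranks 6 to 9 in every group. Per kilobase of exons Atac3 stood higher, at 11.4 in the FRT control of the ada2b experiment (NC2beta 9.72) and at 16.3 in that of the non-stop experiment (NC2beta 13.8). Within the FRT groups wds was above 82.7% to 88.6% of the tested genes, whereas Atac2 was above 23.4% to 28.1%.

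The genes that work with the members outside ATAC were described by lists. Of 9 COMPASS genes, which methylate histone H3 at lysine 4 with wds, 5 fell and none rose in ada2b ovaries (median -0.38), where 42.3% of all genes fell, among them Utx, Cfp1 and Dpy-30L1 (-0.73 each), ash2 (-0.46) and the methyltransferase Set1 (-0.38). In non-stop ovaries, where 25.7% of all genes rose, 5 of these 9 rose and 1 fell (median 0.29): Ptip by 1.14, the methyltransferases Set1, trr and trx by 0.84, 0.66 and 0.56 and the demethylase Utx by 0.29, whereas ash2 fell by 0.48. In the libraries labelled Ataxin-7 only Set1 and trr of the 9 passed the test, with changes of 0.38 and 0.20. The NSL complex, which also holds wds and the acetyltransferase mof, had 6 of 6 genes lower in ada2b ovaries (-0.70 to -0.41), 4 of 6 higher in non-stop ovaries and 3 of 6 higher in libraries labelled Ataxin-7, beside 42.3% of all genes lower in ada2b, 25.7% higher in non-stop and 20% higher in Ataxin-7. wds itself was called in none of the 3 mutants with RPKM as deposited. It was called higher in ada2b ovaries with germline scaling (0.72), higher in libraries labelled Ataxin-7 with quantile and germline scaling (0.14 and 0.23), and lower in non-stop ovaries with common median and germline scaling (-0.22 and -0.53). These directions depended on the scale: with germline scaling the ada2b medians were 0.35 for COMPASS (3 higher, none lower) and 0.15 for NSL (none called), beside 0.59 for all genes, and the non-stop medians were -0.07 for both lists, beside -0.36 for all genes. The NSL counts were then 1 lower and none higher in non-stop ovaries and 6 of 6 higher in libraries labelled Ataxin-7. That scaling moved all genes: in libraries labelled Ataxin-7 the NSL median was 0.27, beside 0.13 for all genes. Under quantile and common median scaling the medians of both lists stayed below 0 in ada2b ovaries and above 0 in non-stop ovaries.

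Of the partners of Chrac-14, all but Acf were called lower in ada2b ovaries with RPKM as deposited, where 42.3% of all genes were. Iswi, the remodeling ATPase of CHRAC and ACF, averaged 27.6 RPKM ± 6.49 in ada2b ovaries and 62.5 RPKM ± 1.16 in FRT ovaries, and Chrac-16, the histone fold partner, averaged 29.3 RPKM ± 4.53 and 53.7 RPKM ± 4.39 in the same groups (SD, n = 3 each). They fell by 1.18 and 0.86 on the log2 scale. Acf averaged 15.3 RPKM ± 3.84 in ada2b ovaries and 15.6 RPKM ± 0.350 in FRT ovaries, and did not pass the test. It rose by 0.44 both in libraries labelled Ataxin-7 and in non-stop ovaries. With germline scaling Acf was called higher in ada2b ovaries (0.70) and not called in non-stop ovaries (0.07). Both measured genes of DNA polymerase epsilon, whose human complex holds the Chrac-14 homolog, fell in ada2b ovaries: DNApol-epsilon255, the catalytic subunit, by 1.28 and DNApol-epsilon58 by 0.75. With germline scaling Iswi and Chrac-16 were at -0.40 and -0.07 and were not called, DNApol-epsilon255 was at -0.57 and was called lower (adjusted p = 0.0118), and DNApol-epsilon58 was at 0.0011.

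ATAC has been linked to JNK signalling in Drosophila, and the 7 genes of that list moved in both directions in ada2b ovaries, with 3 higher, 2 lower and 2 not called, beside 25.6% of all genes higher and 42.3% lower. The Fos gene kay rose by 1.23, averaging 5.18 RPKM ± 0.148 in ada2b ovaries and 1.65 RPKM ± 0.166 in FRT ovaries (SD, n = 3 each). The kinase bsk rose by 0.74 and the Jun gene Jra by 0.27, while the upstream kinases Mekk1 and slpr fell by 0.56 and 0.53. The rises of kay, bsk and Jra were called under each scaling, whereas Mekk1 and slpr turned positive with germline scaling (0.16 and 0.22, neither called). The phosphatase puc, a target of the pathway, changed by 0.25 and did not pass the test in ada2b ovaries, although with germline scaling puc and hep were called higher there (0.88 and 0.67), and slpr was not called with quantile or common median scaling (-0.29 and -0.28). puc rose in libraries labelled Ataxin-7 (0.26) and in non-stop ovaries (0.27), as did slpr (0.22 and 0.50). bsk also rose in libraries labelled Ataxin-7 (0.19), where kay fell by 0.29. The non-stop call of puc was lost with quantile, common median and germline scaling (0.18, 0.22 and -0.0067), and that of slpr with germline scaling (0.14), under which 4 of the 7 genes were called lower in non-stop ovaries. The list median was then -0.33 there, beside -0.36 for all genes.

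**Figure D5:**
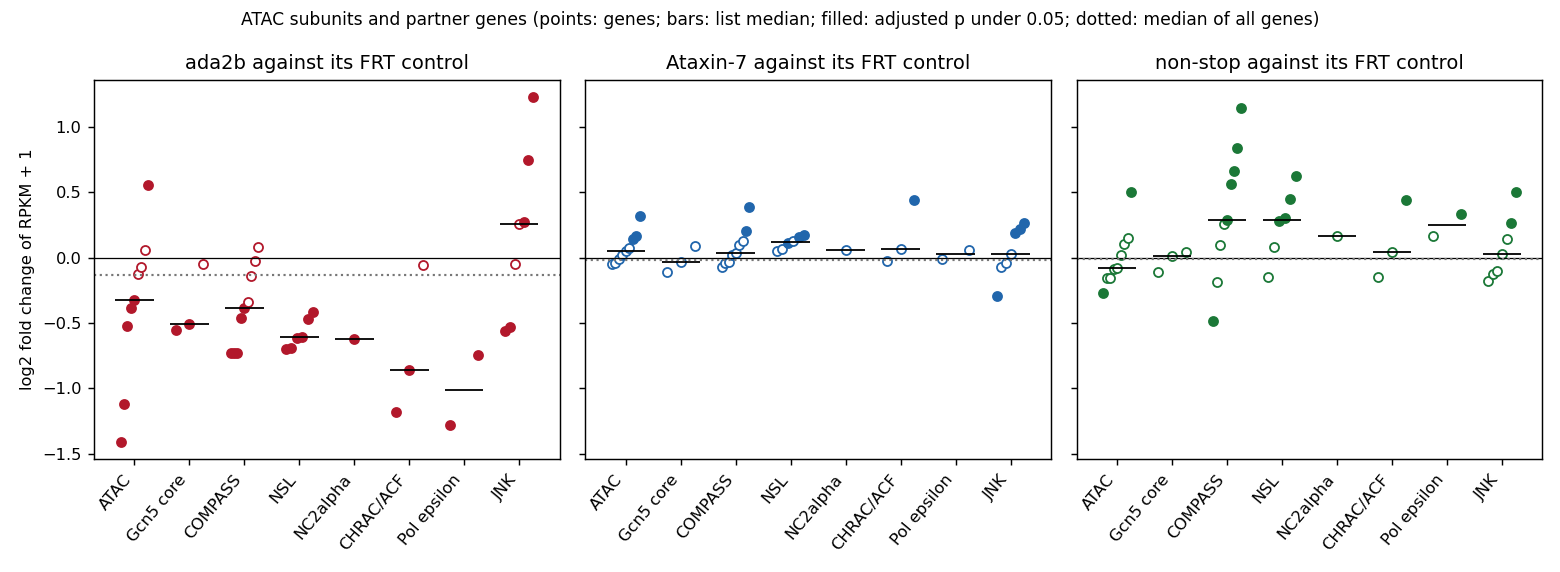
Log2 fold changes of the ATAC subunits and of the lists of partner genes in the 3 mutants against their own FRT controls (points are genes, bars are list medians, filled points passed an adjusted p under 0.05, dotted lines are medians of all genes tested). In ada2b ovaries the NSL median was -0.61 and the DNA polymerase epsilon median -1.01, whereas the COMPASS median was 0.29 in non-stop ovaries.

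The neighbours of the other members were compared in the same way. In ada2b ovaries Ptpmeg, which starts 105 bp from Atac3, had a change of -0.30 (adjusted p = 0.0297). CG32344, downstream of Atac3, had one of 0.27 there that did not pass the test. In non-stop ovaries Ptpmeg was called higher and CG32344 lower (0.33 and -0.45, adjusted p = 0.00927 and 0.00151). CG32344 was also called lower in libraries labelled Ataxin-7 (-0.26, adjusted p = 0.001145), where Ptpmeg was not called. CG10333, convergent with Atac2, fell by 0.41 in ada2b ovaries, where Atac2 was not called. Ankrd49, upstream of NC2beta, was not called in any mutant. In non-stop ovaries egh, downstream of wds, rose by 0.64 and wds did not pass the test. Across the members, a neighbour within 1000 bp thus moved with the member in some cases and against it in others.

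The genes most like each member were found by the root mean square difference over the 18 libraries in log2(RPKM + 1), each relative to the FRT mean of its experiment, among 7162 other genes tested in all experiments. They are a description, and libraries of a group share their source. For D12 these were mus301 and CG9641 (0.0744 and 0.0890), with ada2b changes of -1.35 and -1.54. For Chrac-14/mus201 they were egg and XNP (0.0491 and 0.0593), for NC2beta MagR and a gene listed only as FBgn0019947 (0.0693 and 0.0757), for Atac3 Strip and wek (0.0483 and 0.0535), for Atac1 CG2818 and CG7741 (0.0954 and 0.0962), and for Atac2 CG2061 and Isha (0.0631 and 0.0687). For wds they were qkr58E-1 and akirin (0.0572 and 0.0609), and for Hcf Sbf and CG13531 (0.0748 and 0.0772). For Ada2a/Polr2D both nearest genes, CG17768 and LSm-4, carry 1 value between them (0.0667). No member was among the nearest 2 genes of another: the member most like D12 was Chrac-14/mus201, at 0.240, with 283 other genes nearer, and the member most like Hcf was wds, at 0.134, with 94 nearer.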

How the data were processed

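The authors deposited 1 table of RPKM values per gene for 18 ovary libraries (poly(A) RNA, stranded TruSeq kit). Their processing notes list CASAVA 1.8.2, TopHat2 2.0.13, edgeR 3.14.0 and the build dm3, without roles; the counter and its use of strand are not given in the sources used here. With a length searched for each gene, values were whole multiples of 1 read (within 0.01 reads) for 100.0% of the 13903 genes above 0. This returned the reads, but for 4939 genes under 50 reads more than 1 length fitted. A value of 1 RPKM on 1000 bp stood for at least 20.4 reads. Groups came from the labels. limma 3.58.1, run in R 4.3.3, was fitted to log2(RPKM + 1) of the deposited values (eBayes with a trend, mean of at least 1 RPKM, Benjamini-Hochberg over all genes), each mutant against its own FRT control, and interactions over 12 libraries. The fit was tested on simulated data. As an alternative, voom weights on the recovered reads called 5249, 3469 and 3880 genes in ada2b, Ataxin-7 and non-stop. No replicate pair was identical: chi-square over its degrees of freedom was 9.25 for the closest pair. It was 385 and 267 for ada2b replicate 1 against replicates 2 and 3, and 49.7 for ada2b replicate 2 against 3. In the other groups it reached 79.4, so ada2b replicate 1 stood furthest from its group. Positions are from BDGP6.54 and were not converted from dm3. Members and lists were chosen with earlier results of these data known. The text names the members, the mutated genes, genes of the lists, and the 2 genes nearest to each member; neighbours within 1000 bp were added after values were seen. Alternatives were another pseudocount (0.1), no filter or a mean of at least 5 RPKM, quantile, median and germline scaling, eBayes without a trend, a replicate block, one fit of all libraries, exon lengths, voom, and leaving out each library. The labels call the samples biological triplicates. In the germline and muscle lists 2 of 8 and 1 of 7 markers had no matching row. Figures were drawn with Python 3.11.15 and matplotlib 3.10.9.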

Additional observations from a re-analysis of the deposited data

Results flagged for a closer look

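The change of several ATAC subunits against FRT differed between mutants by the interaction test. Between ada2b ovaries and the libraries labelled Ataxin-7 these were D12 (-1.73), Chrac-14/mus201 (-1.07), Atac3 (-0.54), Hcf (-0.49), Atac1 (-0.43) and NC2beta (0.60). Between ada2b and non-stop ovaries they were D12 (-1.56), Chrac-14/mus201 (-0.96), Atac3 (-0.44), Atac2 (-0.44) and NC2beta (0.53). Between the libraries labelled Ataxin-7 and non-stop ovaries they were Atac2 (-0.35) and Hcf (0.43). A positive value means a more positive change in the mutant named first. Differences of this kind were common among all genes, with 68.5%, 70.6% and 37.5% called in these 3 comparisons. Each mutant shares a number in its labels with its own FRT control and not with the other mutants. What the number stands for is not stated. Mutant and experiment thus cannot be told apart except through each FRT control.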

How the results depend on the processing

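Over 742 refits of 40 member results, 663 kept direction and call, 36 lost the call, 11 gained one and 32 reversed. The causes were not tested. D12 (-1.59 to -0.70) and NC2beta (0.49 to 1.29) in ada2b ovaries kept theirs in all 17 alternatives. In ada2b ovaries Ada2a reversed with quantile (0.0435), common median (0.12) and germline scaling (0.61), wds with the same (0.10, 0.20 and 0.72), and Atac1 (0.34), Atac3 (0.19) and Hcf (0.41) with germline scaling. In the libraries labelled Ataxin-7, Atac3 reversed with quantile normalization (-0.0279), and Ada2a (0.13), NC2beta (0.11) and Chrac-14 (0.10) with germline scaling. In non-stop ovaries NC2beta reversed with quantile (-0.0901), common median (-0.0445) and germline scaling (-0.33), and Ada2a (-0.25) and D12 (-0.21) with germline scaling. Among differences between mutants, germline scaling reversed Atac2 (0.61), Atac3 (0.62) and Chrac-14 (0.16) for ada2b minus non-stop, Atac1 (0.15), Atac3 (0.0334) and Hcf (0.11) for ada2b minus Ataxin-7, and Atac2 (0.12) for Ataxin-7 minus non-stop. D12 for ada2b minus non-stop was then at -0.50 and not called (adjusted p = 0.0786).

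The share of called genes that were higher was 37.7% in ada2b ovaries (58.8% with the common median, 90.5% with germline scaling), 45.2% in libraries labelled Ataxin-7 (85.9% with germline scaling) and 50.7% in non-stop ovaries (12% with germline scaling). For differences between mutants the shares with RPKM as deposited, the common median and germline scaling were 38.2%, 58.7% and 94.3% (ada2b minus non-stop), 38.4%, 58% and 81.6% (ada2b minus Ataxin-7), and 44.9%, 57.5% and 96.2% (Ataxin-7 minus non-stop). For Ataxin-7 against FRT, 1 member was called in 1 fit of all 18 libraries, with 1857 genes called in place of 3288. For non-stop against FRT, 1 member was called with no filter or without a trend. With germline scaling 5 were called, and the median of all genes was then -0.355. With RPKM as deposited 50.8% of all genes were called for non-stop against FRT and 70.6% for ada2b minus non-stop. For ada2b minus non-stop 3 members were called with quantile normalization, and for Ataxin-7 minus non-stop 1 with quantile normalization and 7 with germline scaling, with 5173 genes in place of 2808.

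Same-numbered libraries did not deviate together (correlations -0.376 to 0.13), so numbers were not taken as pairs. With the replicate block 5042, 2718 and 3501 genes were called in ada2b, Ataxin-7 and non-stop, against 5209, 3288 and 3805 without it, and 5184, 5058 and 2316 for ada2b minus non-stop, ada2b minus Ataxin-7 and Ataxin-7 minus non-stop; 1 member was called with the block in Ataxin-7, against 3, and the member counts of the other comparisons stayed the same.

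Leaving out 1 library gave 5 to 7 called members in ada2b (7 without ada2b replicate 1), beside 4429 to 5508 of all genes. In Ataxin-7 it gave 1 to 3 (1 without Ataxin-7 replicate 1), beside 2560 to 2907 genes. In non-stop it gave 1 to 3 (1 without non-stop replicate 1 or 3 or FRT replicate 2 or 3), beside 2899 to 3705 genes. The difference ada2b minus non-stop gave 5 to 6 (5055 to 5438 genes), and ada2b minus Ataxin-7 gave 6 to 7 (4847 to 5455 genes). Ataxin-7 minus non-stop gave 2 to 5 (5 without non-stop FRT replicate 1), beside 2305 to 3064 genes. Reversals in these refits were of uncalled values: wds (-0.1563 to 0.0385) and Atac2 (-0.005 to 0.108) in ada2b, Atac1 (-0.045 to 0.1546), NC2beta (-0.0771 to 0.0027) and Ada2a (-0.0316 to 0.003) in Ataxin-7, and NC2beta (-0.0933 to 0.1317) in non-stop. Exon lengths were not run for differences between mutants or for Chrac-14. NC2beta in ada2b libraries rests on as few as 239 reads and Atac1 on 169, and 3 libraries per group limit every test.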
